A study of Mus musculus with 2 samples.

Results

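Fn1, Spp1, Thbs1, Vcan, F10, F13a1, Serpinb2, Inhba, Plaur and Mmp14 are 10 genes of the extracellular matrix, of blood coagulation and of plasminogen activation that tumor-infiltrating monocytes and macrophages express. They were taken by symbol from the gene table that both libraries share, 10 of its 27998 rows, and 1 row carried each symbol. The list was chosen by measured values of these same libraries, the level in monocytes and, for Serpinb2 and Inhba, the ratio between the libraries, so those values are given as descriptions. All 10 genes are followed below, first over gated states of monocytes and macrophages, then over single cells, and then between the libraries.

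CD45+ leukocytes were sorted from subcutaneous tumors of Lewis lung carcinoma (LLC), a mouse lung cancer line, 14 days after implantation into C57/BL6 mice, listed at 10 weeks of age. Control mice carried miR-21 flanked by loxP sites (miR-21 flox/flox), and in the other mice LysMCre removed it from cells that express lysozyme M, which are mainly monocytes, macrophages and neutrophils, while T and NK cells keep it. Both genotypes carry the floxed alleles, Cre itself was not controlled for, and cells of 3 mice were pooled into 1 droplet library per genotype, titled wt and cko. The title and the source description of each library name opposite genotypes, and the growth protocol names a tumor macrophage gate in place of CD45+ cells alone, so each group is named by its title alone, as the library labelled wt or labelled cko. Lyz2, the gene that carries the LysMCre insertion, was 2.10-fold lower in monocytes and macrophages of the library labelled cko (9219 against 19372 CPM, defined below), the direction its title gives.

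The libraries held 2449 and 2718 cells (wt and cko, the order used throughout) with medians of 8359 and 8247 UMIs, unique molecular identifiers that each count 1 captured transcript, and they shared 5 cell barcodes. After filters 2397 and 2646 cells remained, of which 2046 and 2197 were monocytes or macrophages. Levels are CPM, the UMIs of a gene summed over the cells of a state, divided by all UMIs of that state and scaled to 1000000. With 1 library per group there was no replicate and no test, and every interval is an exact 95% interval for counting error only, which leaves out the spread between mice and between cells. Because the chemistry reads the 3′ end of each transcript, levels are compared between states and libraries for 1 gene at a time, not between genes.

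Monocytes enter tumors from blood, where classical monocytes with high Ly6C give rise both to nonclassical monocytes and, inside tissue, to macrophages. Fibronectin, versican, thrombospondin 1 and osteopontin are secreted proteins that monocytes and macrophages lay down or release at sites of injury, and provisional matrix of this kind is a familiar feature of wounds and tumors. Factor X, once activated, turns prothrombin into thrombin, and the A subunit of factor XIII cross-links fibrin. The urokinase receptor holds urokinase at the cell surface, where it turns plasminogen into plasmin, and plasminogen activator inhibitor type 2 inhibits urokinase. Mmp14 encodes a membrane-bound metalloproteinase that cleaves collagen and activates other proteases of its family, and Inhba encodes the subunit of activin A, a ligand of the TGF-β family.

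The promoters of 8 of the 10 genes were in the RefSeq table used (GRCm38.p6), as windows of 300 bases from 250 before to 50 after an annotated start. Those of Serpinb2 and Inhba are shown because these genes differed most between the libraries and were read together in some cells, and those of F10 and Plaur because no other pair of the 10 genes had levels as alike over the states. The windows are chr1:107511173-107511472 for Serpinb2, chr13:16011601-16011900 for Inhba, chr8:13037058-13037357 for F10 and chr7:24462233-24462532 for Plaur, all on the plus strand and written 5′ to 3′. Capitals mark matches, on either strand, to TGANTCA (AP-1), TATAAA, GAGGAAGT (PU.1) or TTNNGCAA (C/EBP).
Serpinb2: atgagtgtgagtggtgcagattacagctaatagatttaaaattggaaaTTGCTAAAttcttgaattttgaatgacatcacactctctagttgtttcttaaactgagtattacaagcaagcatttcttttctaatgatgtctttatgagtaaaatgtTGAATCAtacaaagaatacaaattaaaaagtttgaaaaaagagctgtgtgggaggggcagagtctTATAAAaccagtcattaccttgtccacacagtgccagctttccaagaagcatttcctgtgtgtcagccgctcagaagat
Inhba: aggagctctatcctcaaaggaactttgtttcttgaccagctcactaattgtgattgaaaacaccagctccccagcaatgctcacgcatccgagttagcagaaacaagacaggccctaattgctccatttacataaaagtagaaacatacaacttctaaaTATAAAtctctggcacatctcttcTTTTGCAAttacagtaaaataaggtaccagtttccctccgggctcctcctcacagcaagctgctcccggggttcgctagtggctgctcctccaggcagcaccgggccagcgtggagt
F10: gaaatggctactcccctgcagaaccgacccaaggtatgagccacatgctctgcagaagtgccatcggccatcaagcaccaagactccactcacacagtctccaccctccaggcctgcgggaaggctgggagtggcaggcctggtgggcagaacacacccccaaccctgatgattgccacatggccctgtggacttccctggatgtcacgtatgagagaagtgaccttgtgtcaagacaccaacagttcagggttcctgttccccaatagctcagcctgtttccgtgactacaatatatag
Plaur: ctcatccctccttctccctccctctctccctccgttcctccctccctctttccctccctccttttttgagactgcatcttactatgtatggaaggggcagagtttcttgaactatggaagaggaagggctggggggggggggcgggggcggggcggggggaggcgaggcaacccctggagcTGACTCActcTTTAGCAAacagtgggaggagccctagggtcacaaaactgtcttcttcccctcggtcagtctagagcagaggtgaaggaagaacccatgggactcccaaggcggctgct

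Among 32851 promoter windows of the same length, 7.81% held TGANTCA, 13.6% TATAAA, 3.20% GAGGAAGT and 10.8% TTNNGCAA. For Serpinb2 the table held a second window, from another annotated start, at chr1:107511260-107511559, which overlaps the one shown. In the Serpinb2 window shown TGANTCA began at −94 and TATAAA at −29 from the annotated start, with a TTNNGCAA match on the minus strand at −202. Counted from the other start the first 2 lay at −181 and −116, and that window held TTNNGCAA on the plus strand at −19. The Inhba window held TATAAA at −91 and TTNNGCAA at −67. In the Plaur window TGANTCA at −69 was followed by TTNNGCAA at −59, and the F10 window held none of the motifs. TTNNGCAA was the match that Serpinb2, Inhba and Plaur had in common. A match is a run of letters, not a shown binding site.

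Each cell was assigned to a state from UMIs of marker genes other than the 10. Monocytes low in complement C1q (Ly6c2 read, C1q genes below 10 UMIs per 10000) were called classical and split by interferon response genes into low (578 and 594 cells) and high (204 and 172 cells). Nonclassical monocytes (145 and 141 cells) had Ace with other nonclassical markers, and the Ly6c2-negative C1q-low state (316 and 296 cells) had neither Ly6c2 nor that signature. Above the C1q limit, cells with at least 2 Ly6c2 UMIs were called transitional (287 and 241 cells), whereas classical monocytes needed 1. The remaining, Ly6c2-low C1q macrophages were divided into a CD300E type (121 and 269 cells), a VCAM1 type (176 and 196 cells) and other C1q macrophages (219 and 288 cells). Ccr2, which is in no gate, read 844 and 947 CPM in classical monocytes against 291 and 322 CPM in Ly6c2-low C1q macrophages, and Adgre1, which encodes F4/80 and helps to admit a cell as monocyte or macrophage but divides none of these states, read 197 and 163 against 442 and 367 CPM. States are cuts through a range, since 7.82% and 7.37% of monocytes and macrophages lay within 2-fold of the C1q limit and 19.7% and 16.4% of classical monocytes within 2-fold of the interferon limit.

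The 10 genes did not form 1 monocyte pattern. Fn1, Vcan, F10 and Thbs1 were at least 2-fold higher in classical monocytes than in Ly6c2-low C1q macrophages in both libraries. These are 4 of the 8 members with at least 50 UMIs in the comparison, where 3.53% of 8857 genes were 2-fold higher and 6.39% 2-fold lower in both libraries; the members were proposed as monocyte genes, so the count is a description. F13a1 was 1.76-fold and 2.33-fold higher and Plaur 1.93-fold and 1.64-fold higher in classical monocytes. Spp1 stood at 0.932-fold and 1.35-fold, but without the top cell of each library it was lower in classical monocytes in both (log2 ratios −0.36 and −0.52), and Mmp14 ran the other way at 0.605-fold and 0.501-fold. The median over the 8 members of the log2 ratio, averaged over both libraries, was 1.58, against −0.08 over all genes. Serpinb2 and Inhba were too sparse for this ratio.

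**Figure D1:**
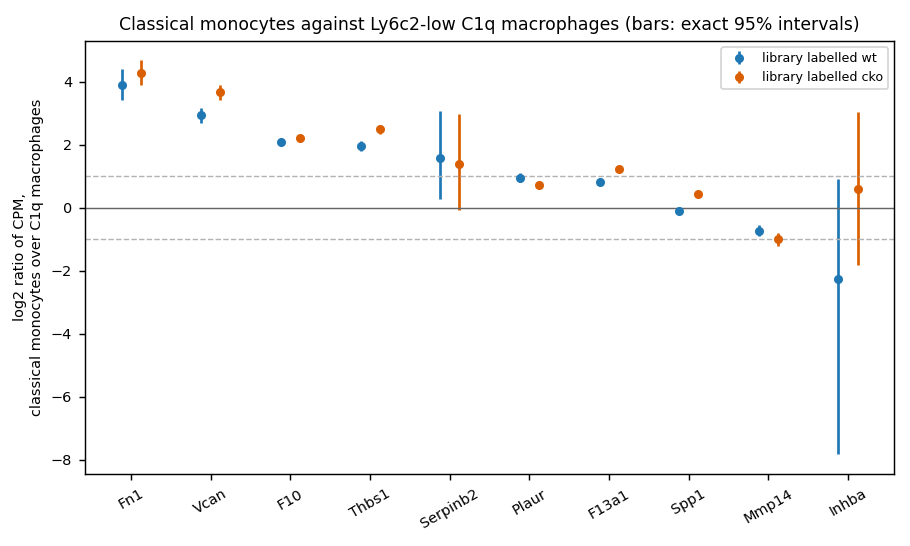
Log2 ratio of CPM in classical monocytes over Ly6c2-low C1q macrophages for each gene (vertical axis), in the library labelled wt (blue) and cko (orange), with exact 95% intervals as bars, a solid line at 0 and dashed lines at 2-fold. Fn1 stands highest at 3.90 and 4.26, and Mmp14 lies below 0 at −0.72 and −1.0 with intervals that do not reach it, while the bars of Serpinb2 and Inhba are the widest.

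Fn1 (fibronectin, ENSMUSG00000026193, chr1:71585520-71653200, minus strand) had the steepest fall from monocytes to macrophages of the 8 members in both libraries. It read 81.5 CPM in classical monocytes of the library labelled wt and 119 CPM in those labelled cko, against 5.46 and 6.18 CPM in Ly6c2-low C1q macrophages, a 14.9-fold and 19.2-fold difference. Within classical monocytes it was higher in cells low in interferon response (89.7 and 134 CPM) than in those high in it (58.1 and 66.4 CPM), by 1.55-fold and 2.02-fold, with intervals of the log2 ratio from 0.31 to 0.95 and from 0.71 to 1.34. Nonclassical monocytes held 18.7 and 17.8 CPM, 0.230 and 0.150 of the classical level. Transitional cells held 14.3 and 28.7 CPM, and the VCAM1 type 1.24 and 3.25 CPM from 4 and 11 UMIs. A Fn1 UMI was found in 25.6% and 35.4% of classical monocytes and in 1.55% and 1.78% of T and NK cells, whose reads give the level of free RNA, at median depths of 8107 and 7756 against 5796 and 6513 UMIs. Thinned to 3000 UMIs per cell, the shares in classical monocytes were 14.8% and 20.5% and those in T and NK cells 0 of 193 cells, which allows up to 1.55%, and 0.444%.

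Vcan (versican, a hyaluronan-binding proteoglycan, ENSMUSG00000021614, chr13:89655312-89742509, minus strand) fell from 177 and 212 CPM in classical monocytes to 23.3 and 16.8 CPM in Ly6c2-low C1q macrophages, by 7.62-fold and 12.6-fold. Unlike Fn1 it did not separate classical monocytes by interferon response, with log2 ratios of low over high of 0.15 (−0.05 to 0.34) and 0.00 (−0.18 to 0.19). Nonclassical monocytes kept 91.6 and 97.8 CPM, within counting error of both the Ly6c2-negative C1q-low state and the transitional cells in each library. In the CD300E type 24 and 10 UMIs remained, 13.5 and 2.76 CPM.

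Thbs1 (thrombospondin 1, a matrix glycoprotein that also activates latent TGF-β, ENSMUSG00000040152, chr2:118111876-118127133, plus strand) read 264 and 314 CPM in classical monocytes and 68.2 and 55.9 CPM in Ly6c2-low C1q macrophages. The macrophage value was mostly that of the other C1q macrophages, at 185 and 155 CPM, which was 8.18-fold and 7.71-fold above the pooled CD300E and VCAM1 types. The Ly6c2-negative C1q-low state was as high as classical monocytes with low interferon response in the library labelled wt (286 and 281 CPM, within counting error) and below them in the library labelled cko (243 and 353 CPM). Nonclassical monocytes held 87.4 and 102 CPM, 0.331 and 0.326 of the classical level.

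Thbs1 was not a gene of monocytes alone. Neutrophils read 679 and 328 CPM, from 40 and 54 UMIs in 9 of 17 and 16 of 42 cells, while Fn1, Vcan, F13a1 and Mmp14 had no UMI in the same neutrophils. T and NK cells read 7.79 and 8.74 CPM of Thbs1.

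F10 (coagulation factor X, ENSMUSG00000031444, chr8:13037308-13056676, plus strand) marked monocytes of both kinds. It read 350 and 403 CPM in classical monocytes, 307 and 313 CPM in nonclassical monocytes and 82.3 and 87.5 CPM in Ly6c2-low C1q macrophages, 4.25-fold and 4.60-fold below classical. In the CD300E and VCAM1 types it fell to between 21.4 and 50.5 CPM, and the other C1q macrophages held 218 and 208 CPM. It was read in 78.8% and 85.0% of classical monocytes and in 3.11% and 5.33% of T and NK cells. Neutrophils had 1 and 2 F10 UMIs.

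F13a1 (factor XIII A subunit, ENSMUSG00000039109, chr13:36867178-37050244, minus strand) was lowest in another state than F10. Nonclassical monocytes, where F10 stayed near the classical level, read least (28.1 and 46.7 CPM), in the library labelled cko within counting error of the CD300E type, and these values were 0.126 and 0.144 of the classical 224 and 325 CPM. Ly6c2-low C1q macrophages kept 127 and 139 CPM, among them the VCAM1 type with 132 and 134 CPM and the other C1q macrophages with 189 and 256 CPM. The CD300E type held less, 48.8 and 62.9 CPM. F13a1 also differed between classical monocytes low and high in interferon response, by 1.37-fold and 1.94-fold (log2 intervals 0.27 to 0.64 and 0.77 to 1.14).

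Plaur (urokinase receptor, ENSMUSG00000046223, chr7:24462484-24475968, plus strand) differed little between the monocyte states. Classical monocytes read 186 and 199 CPM and nonclassical monocytes 215 and 202 CPM, with log2 ratios of nonclassical over classical of 0.21 (−0.01 to 0.43) and 0.03 (−0.21 to 0.25). Ly6c2-low C1q macrophages read 96.4 and 121 CPM. Its highest level was in neutrophils, at 1240 and 1089 CPM, with a UMI in 17 of 17 and 39 of 42 cells. T and NK cells held 20.1 and 17.5 CPM. Urokinase itself, Plau, gave 60 and 46 UMIs over all monocytes and macrophages.

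Mmp14 (membrane-type metalloproteinase, ENSMUSG00000000957, chr14:54431612-54445364, plus strand) was not highest in classical monocytes, and its order did not divide monocytes from macrophages either. The other C1q macrophages were highest in both libraries (141 and 105 CPM), and the VCAM1 type read 92.6 and 95.5 CPM and the transitional cells 109 and 90.4 CPM. The Ly6c2-negative C1q-low state read 119 and 73.1 CPM, second in the library labelled wt, and the CD300E type 82.5 and 51.0 CPM, below that state in both. Classical monocytes with low interferon response read 56.1 and 34.5 CPM, the lowest state in the library labelled cko. Nonclassical monocytes read 51.0 and 58.9 CPM, within counting error of them in the library labelled wt. Classical monocytes with high interferon response were higher, at 81.6 and 61.5 CPM. In the library labelled cko the VCAM1 type lay within counting error of the other C1q macrophages and of the transitional cells, and the transitional cells were above the Ly6c2-negative C1q-low state beyond it. Within classical monocytes Mmp14 and Fn1 kept apart: cells with a Mmp14 UMI held 20.5 and 41.4 CPM of Fn1, and cells without one 108 and 140 CPM, at median depths of 8250 and 7933 against 7926 and 7670 UMIs.

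**Figure D2:**
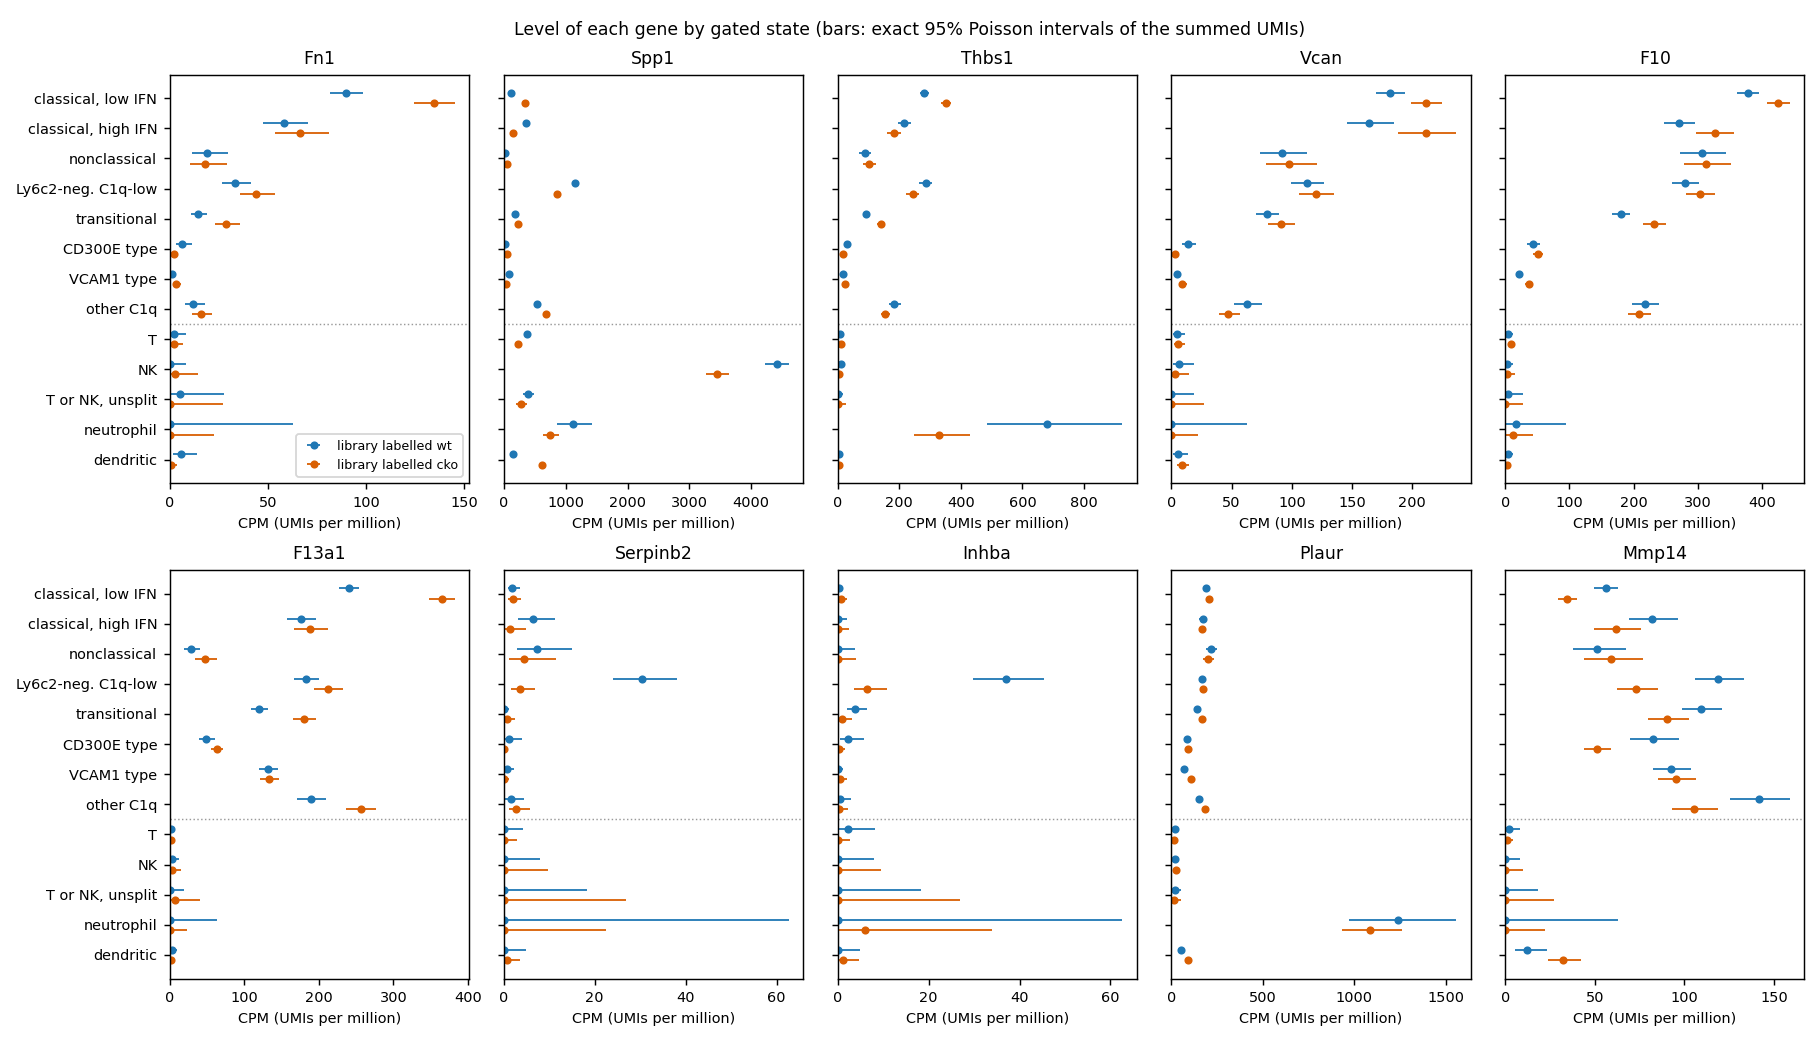
Level of each gene (horizontal axes, CPM, a separate linear scale per panel) in 8 gated monocyte and macrophage states and, below the dotted line, in 5 groups of other leukocytes, in the library labelled wt (blue) and cko (orange), with exact 95% Poisson intervals as bars. Fn1, Vcan and F10 fall from the classical rows to the CD300E and VCAM1 rows, Spp1 peaks in NK cells at 4409 and 3446 CPM, and Plaur peaks in neutrophils at 1240 and 1089 CPM.

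Spp1 (osteopontin, a secreted phosphoprotein that binds integrins and CD44, ENSMUSG00000029304, chr5:104435118-104441050, plus strand) was uneven over cells and states. Among monocytes and macrophages the Ly6c2-negative C1q-low state read most (1146 and 865 CPM), followed by the other C1q macrophages (532 and 688 CPM). Nonclassical monocytes read 13.5 and 55.6 CPM. Classical monocytes with low interferon response held 118 CPM in the library labelled wt and 335 CPM in that labelled cko, but 1006 of the 1632 UMIs of the second value came from 1 cell. Without the top cell of each library these classical monocytes read 108 and 129 CPM.

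Few cells carried the Spp1 reads. Of all monocytes and macrophages, 22.7% and 26.2% had a Spp1 UMI, yet 13 cells in each library held 50% of the 6053 and 6615 UMIs. Cells with at least 10 Spp1 UMIs made up 7.28% and 7.77% of the Ly6c2-negative C1q-low state (23 cells in each library, intervals 4.67% to 10.7% and 4.99% to 11.4%) and 9.13% and 9.03% of the other C1q macrophages. In nonclassical monocytes there were 0 of 145 such cells, which allows up to 2.07%, and 1 of 141.

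NK cells held a higher Spp1 level than any monocyte or macrophage state, 4409 and 3446 CPM. At least 10 UMIs were read in 20 of 52 and 11 of 46 NK cells (38.5%, interval 25.3% to 53.0%, and 23.9%, interval 12.6% to 38.8%). NK cells were 2.17% and 1.74% of the cells kept and held 22.6% and 13.2% of all Spp1 UMIs. The 3 richest NK cells of each library, with 144 to 563 and 158 to 537 Spp1 UMIs, had 0 or 1 UMI of the 5 macrophage markers and 3 to 21 UMIs of Ncr1, an NK receptor. T cells read 372 and 237 CPM, neutrophils 1121 and 754 CPM, and dendritic cells 152 and 615 CPM. After thinning, a Spp1 UMI was read in 31.1% and 25.3% of T and NK cells and in 11.7% and 14.3% of monocytes and macrophages. With the NK level given above, T and NK cells give no level of free RNA for Spp1, so these shares set no background. T cells with at least 10 Spp1 UMIs were 6.14% and 7.01%, within the intervals of the Ly6c2-negative C1q-low state. Cells with at least 100 UMIs were 8 and 5 in that state and 3 and 6 in other C1q macrophages, and there were none among 114 and 157 T cells, which allows up to 2.63% and 1.91%.

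**Figure D3:**
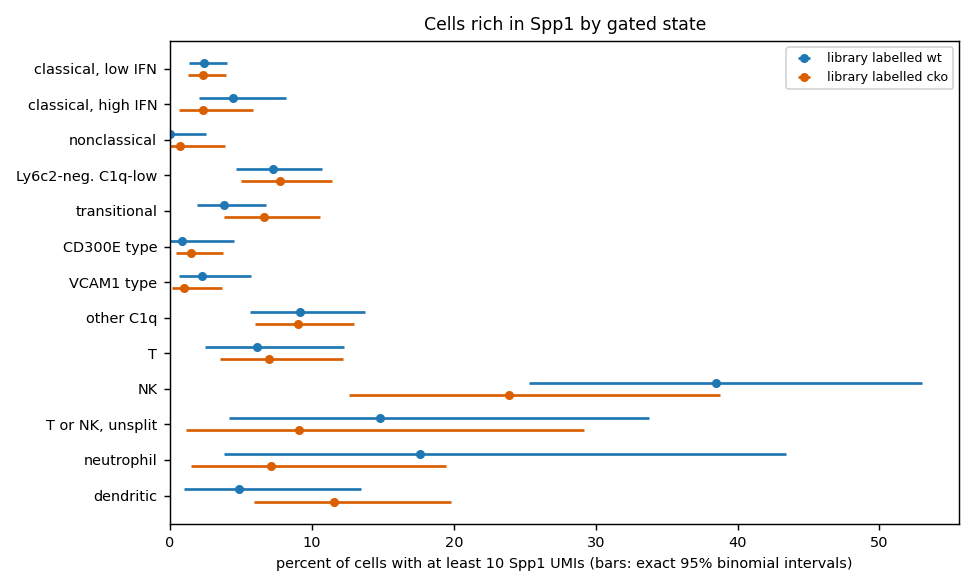
Percent of cells with at least 10 Spp1 UMIs (horizontal axis) in each gated state of the library labelled wt (blue) and cko (orange), with exact 95% binomial intervals as bars. NK cells stand highest at 38.5% and 23.9%, and nonclassical monocytes lowest at 0% and 0.709%.

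Serpinb2 (plasminogen activator inhibitor type 2, ENSMUSG00000062345, chr1:107511423-107535478, plus strand) was rare. It was read in 35 of 2046 and 26 of 2197 monocytes and macrophages (1.71% and 1.18%), and in 0 of 193 and 0 of 225 T and NK cells, which allows up to 1.55% and 1.33%, so cells with 1 UMI could not be told from background at this depth. In 28 and 24 of these cells there was exactly 1 UMI. The highest cells labelled wt had 42 and 24 UMIs, both in the Ly6c2-negative C1q-low state, and 6 UMIs, in a classical monocyte with high interferon response, and the others had 2 or 3. The highest cells labelled cko had 5 and 4 UMIs. By state, the Ly6c2-negative C1q-low cells held 76 and 8 UMIs (30.5 and 3.48 CPM, in 8 and 5 cells), and nonclassical monocytes 7 and 4 UMIs, each in a separate cell. Serpinb2 shares 6476 bases on its own strand with Serpinb10, which had 1052 UMIs in monocytes and macrophages, so reads from the shared stretch are uncertain.

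Inhba (activin A subunit, ENSMUSG00000041324, chr13:16011851-16031621, plus strand) was rarer still, in 10 and 13 cells. A single cell labelled wt held 83 of the 111 UMIs (74.8%) and the next 12, and a single cell labelled cko 11 of the 26 UMIs (42.3%) and the next 3. The Ly6c2-negative C1q-low state held 92 and 15 UMIs, 36.9 and 6.53 CPM. T and NK cells held 2 and 0 UMIs.

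Serpinb2 and Inhba met in few cells. In the library labelled wt both were read in 5 cells, 14.3% of the Serpinb2 cells and 50% of the Inhba cells, whereas in the library labelled cko they met in 1 cell (3.85% and 7.69%). The cell with 83 Inhba UMIs was the one with 42 Serpinb2 UMIs. It had 8723 UMIs in all, 86 of Spp1, 37 of Thbs1 and none of Fn1 or Vcan, 19 UMIs of macrophage markers, and a doublet score above that of 20.7% of its library. The cell with 24 Serpinb2 UMIs had 6103 UMIs in all, 3 of Inhba, and 367 of Spp1, the most of any monocyte or macrophage in that library. Neither had a UMI of the tumor and fibroblast markers.

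Among the genes most raised in cells with a Serpinb2 UMI, taken by the lower fold of both libraries, were Cxcl3 (56.2-fold and 112-fold), a neutrophil-attracting chemokine, Pdpn (16.2-fold and 18.9-fold), which encodes podoplanin, Inhba (303-fold and 13.3-fold) and Nos2 (36.4-fold and 12.8-fold), which encodes inducible nitric oxide synthase. These folds came from few cells. Without the 2 top cells of each library Cxcl3 was 32.6-fold and 121-fold higher, in 5 of 33 and 5 of 24 cells. The second fold rested on 1 cell, which held 179 of the 187 Cxcl3 UMIs of all Serpinb2 cells labelled cko. In the library labelled wt Inhba then stood at 20.7-fold and Pdpn at 6.78-fold, in 3 and 4 of 33 cells, and Nos2 at 35.1-fold. In the library labelled cko Inhba, Pdpn and Nos2 each rested on 1 of 24 cells. For cells with an Inhba UMI the genes most raised included Cxcl3, Adm, Pdpn and Hilpda. Without the 2 top cells, Cxcl3 stood at 75.3-fold in the library labelled wt and 1.70-fold in that labelled cko, and Adm was not read in the remaining 8 and 11 cells.

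**Figure D4:**
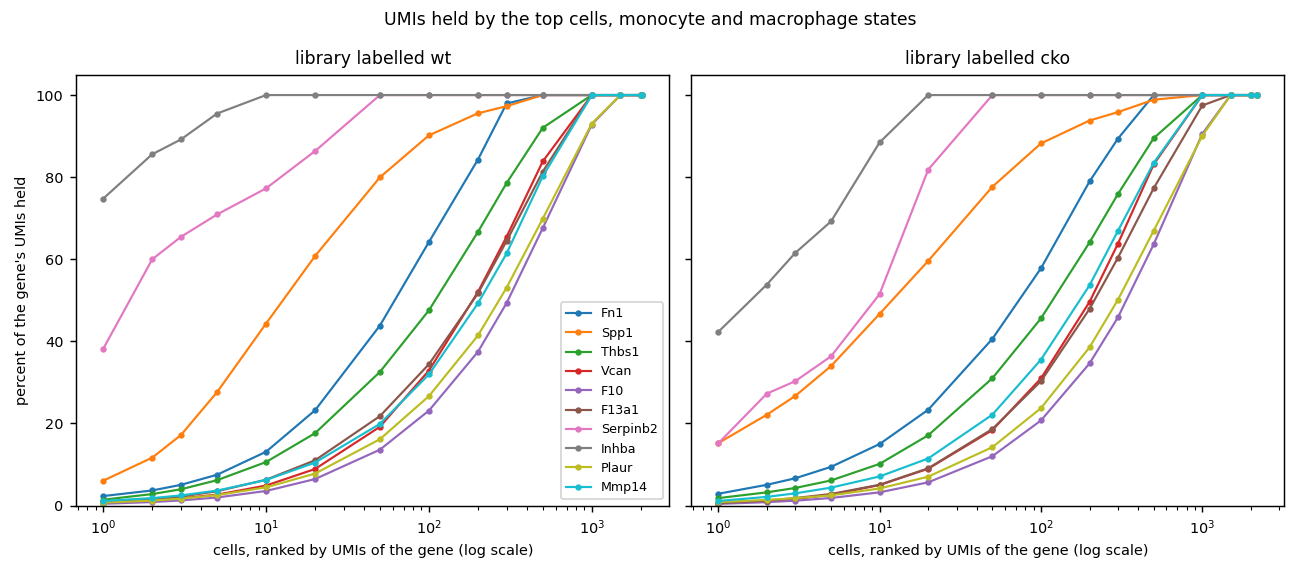
Percent of a gene's UMIs (vertical axis) held by the top cells, ranked by UMIs of that gene (horizontal axis, log scale), among monocytes and macrophages of the library labelled wt (left) and cko (right). Inhba, Serpinb2 and Spp1 rise first, with 74.8%, 38.2% and 6.06% of UMIs in the top cell labelled wt, and F10 rises last in both panels.

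The remaining members were spread over many cells. The top 1% of monocytes and macrophages held 6.46% and 6.15% of F10 UMIs, 7.80% and 7.56% of Plaur, 8.92% and 9.65% of Vcan, 11.05% and 9.82% of F13a1 and 10.5% and 12.3% of Mmp14. Thbs1 (17.6% and 18.3%) and Fn1 (23.2% and 24.7%) were more concentrated, and Spp1 reached 60.8% and 61.5%. The fewest cells that held 50% of the F10 UMIs numbered 306 and 342, and those for Fn1 62 and 74.

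Over the 8 states in 2 libraries (16 points, which share libraries and reads), Pearson's r of log2(CPM + 10) was 0.96 between F10 and Plaur, 0.95 between Vcan and F10, 0.93 between Thbs1 and Vcan and 0.91 between Fn1 and Vcan. Mmp14 had an r of −0.44 with Fn1, and F13a1 an r of 0.34 with F10. Between single classical monocytes (782 and 766 cells) the highest values were 0.36 and 0.34 for Thbs1 and Vcan and 0.33 and 0.30 for Fn1 and F13a1. The genes most like each member over the 16 points were Mpc1 for Fn1 (0.97), Emb for Thbs1 (0.98), Glipr2 for Vcan (0.97), S100a4 for F10 (0.98), Gas7 for F13a1 (0.96), Lpar6 for Plaur (0.96), Marcksl1 for Mmp14 (0.86) and, for Spp1, the glycolysis gene Aldoc (0.90), followed by Gapdh (0.89) and Bnip3 (0.87). For Serpinb2 and Inhba, where few cells set the levels, the nearest among genes with at least 200 UMIs were Sdc1 (0.790) and Fam177a (0.82). The r between Serpinb2 and Inhba was 0.793.

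Between the libraries the question was which of these genes differed with the genotype label. Of the 10, 2 passed 1.5-fold over all monocytes and macrophages, Serpinb2 and Inhba, both lower in the library labelled cko, and both had been listed for that difference. Among 10511 genes, 4.04% passed the same limit. The other 8 lay within 1.5-fold, and the median log2 ratio of the 10 was 0.02, against 0.04 over all genes.

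Serpinb2 read 5.36 CPM labelled wt and 1.51 CPM labelled cko (110 and 33 UMIs, log2 ratio −1.83, interval −2.44 to −1.26). Inhba read 5.41 and 1.19 CPM (111 and 26 UMIs, log2 ratio −2.19, −2.86 to −1.56). Both ratios rested on the cells named above. Without the top cell of each library they were −1.37 (−2.06 to −0.72) and −0.99 (−2.0 to −0.04), and without the top 2 they were −0.97 (−1.75 to −0.22) and −0.51 (−1.72 to 0.66). The shares of cells with a UMI were 1.71% and 1.18% for Serpinb2 and 0.489% and 0.592% for Inhba. In T and NK cells an Inhba UMI was found in 1.04% labelled wt and in 0 of 225 cells labelled cko, which allows up to 1.33%, so the Inhba shares were not above background. In classical monocytes Serpinb2 gave 20 and 12 UMIs and Inhba 1 and 4. Markers of mast cells and basophils, summed over the same cells, gave 128 UMIs labelled wt and 6 labelled cko (all 4 markers read in the first, 3 of 4 in the second with Tpsb2 at 0), and their part in the difference was not tested.

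**Figure D5:**
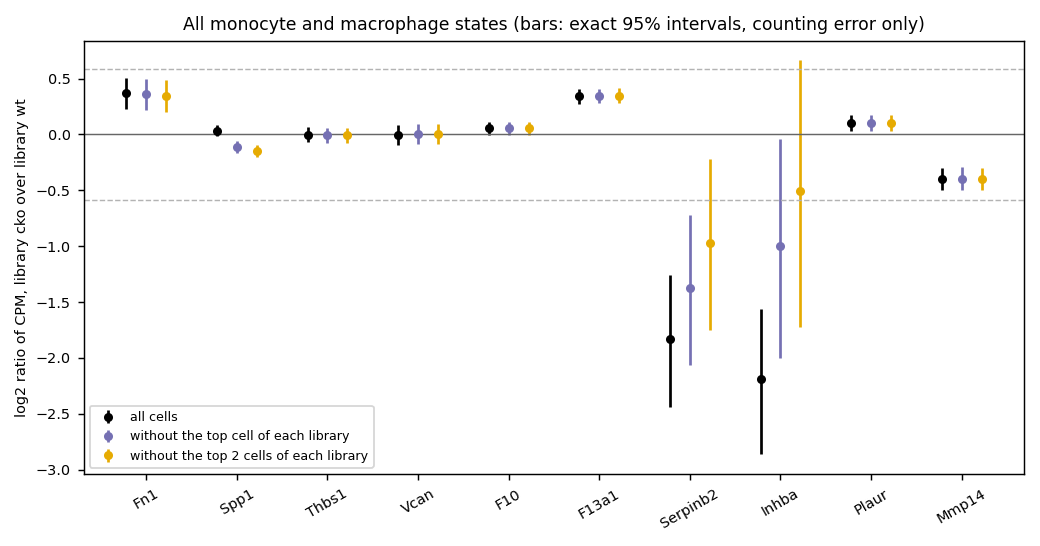
Log2 ratio of CPM, library labelled cko over wt, over all monocytes and macrophages for each gene (vertical axis), with all cells (black), without the top cell of each library (purple) and without the top 2 (yellow), exact 95% intervals as bars and dashed lines at 1.5-fold. Inhba moves from −2.19 to −0.51 and Serpinb2 from −1.83 to −0.97, whereas F13a1 at 0.34 and Mmp14 at −0.40 hardly move.

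Among the better-read genes Fn1, F13a1, Mmp14 and Plaur differed between the libraries beyond counting error, and within 1.5-fold. F13a1 read 159 and 202 CPM (log2 ratio 0.34, 0.28 to 0.41) and Fn1 35.7 and 46.0 CPM (0.37, 0.23 to 0.51), both higher in the library labelled cko. Mmp14 read 90.6 and 68.9 CPM (−0.40, −0.49 to −0.30), and Plaur 147 and 158 CPM (0.10, 0.03 to 0.17). Thbs1 (163 and 163 CPM), Vcan (96.8 and 96.7 CPM), F10 (220 and 229 CPM) and Spp1 (295 and 302 CPM) had ratios whose intervals held 0. Without the top cell of each library the Spp1 ratio was −0.11 (−0.17 to −0.06). In classical monocytes Thbs1 (0.25, 0.15 to 0.34), Vcan (0.25, 0.14 to 0.37) and F10 (0.20, 0.12 to 0.28) were higher labelled cko. In Ly6c2-low C1q macrophages these genes stood, in that order, at −0.29 (−0.47 to −0.10), −0.47 (−0.80 to −0.15) and 0.09 (−0.07 to 0.24). None of these intervals covers the spread between mice.

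State by state, the F13a1 ratio was 0.60 in classical monocytes with low interferon response, 0.59 in transitional cells, 0.44 in other C1q macrophages, 0.10 (−0.14 to 0.34) in classical monocytes with high interferon response and 0.02 (−0.18 to 0.21) in the VCAM1 type. The Fn1 ratio was 0.58 in classical monocytes with low interferon response (0.41 to 0.76), 1.00 in transitional cells (0.47 to 1.54), 0.19 (−0.23 to 0.61) in classical monocytes with high interferon response, −0.08 (−1.14 to 0.98) in nonclassical monocytes and −1.48 (−3.00 to −0.04) in the CD300E type. Mmp14 was lower in the library labelled cko by −0.70 in classical monocytes with low interferon response, −0.70 in the Ly6c2-negative C1q-low state and −0.69 in the CD300E type, and was 0.04 (−0.19 to 0.28) in the VCAM1 type and 0.21 (−0.38 to 0.80) in nonclassical monocytes. For 3 of the 10 genes, Fn1, Spp1 and Thbs1, a pair of states passed 1.5-fold in opposite directions with intervals on opposite sides of 0, which held for 1.66% of 10511 genes. Without the top cell of each library in a state, 1 of the 10 did, Spp1, and the share of all genes was not recomputed. The 1.66% covers all genes with at least 50 UMIs and was not matched for their number. Fn1, Spp1 and Thbs1 had 1739, 12668 and 6907 UMIs. Whether the ratios above differ between states was not tested. The 10 immediate-early and heat-shock genes, which respond to tissue handling as well as to signals, had a median log2 ratio of 0.35 in the same cells, over a range from 0.06 to 0.67. The highest of them were Junb (394 and 430 CPM, 0.13), Fos (360 and 489 CPM, 0.44) and Hspa1a (235 and 338 CPM, 0.53), and their part in the ratios was not tested.

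Over the 6 lists of other genes of these pathways, 2 of 56 genes with at least 50 UMIs passed 1.5-fold between the libraries (3.57%), a share near the 4.04% of all genes. Of the coagulation list 10 of 25 genes had at least 50 UMIs and 0 passed 1.5-fold in either direction. Gas6, a vitamin K-dependent ligand, Vkorc1 and Pros1 (protein S) had the highest levels of the list, at 47.5 and 40.7, 22.8 and 23.4, and 18.7 and 21.9 CPM. Of the 10, 4 were at least 2-fold higher in Ly6c2-low C1q macrophages than in classical monocytes in both libraries, among them Gas6 (124 and 79.8 against 1.80 and 1.90 CPM) and Vkorc1 (38.1 and 35.1 CPM in these macrophages), and 2 were 2-fold lower. Over the 8857 genes of that comparison 6.39% were 2-fold higher in these macrophages and 3.53% 2-fold lower. Of the plasminogen list 6 of 13 genes had as many UMIs and 0 passed, with S100a10 (800 and 762 CPM) and Anxa2 (788 and 858 CPM), the surface complex that binds plasminogen, both at least 2-fold higher in classical monocytes. In that list 1 gene was 2-fold higher in Ly6c2-low C1q macrophages. So were 5 of 14 matrix receptors, 1 of 7 matrix genes and 3 of 13 proteases and inhibitors. In classical monocytes 1, 3 and 2 of these were 2-fold higher, and the activin axis had 0 in either direction.

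Of the matrix list 7 of 23 genes had at least 50 UMIs and 1 was past 1.5-fold, Tnfaip6, with 38 UMIs labelled wt and 19 labelled cko (log2 ratio −1.09, −1.97 to −0.26). Tgfbi, a matrix protein that TGF-β induces, read 1845 and 2196 CPM, the highest of that list. Matrix receptors, with 14 of 15 genes at 50 UMIs or more, and the activin axis, with 7 of 13, had 0 past the limit in either direction. Of the proteases and inhibitors 13 of 17 reached 50 UMIs and 1 passed, Mmp9, which encodes gelatinase B, with 112 and 41.9 CPM (−1.42, −1.53 to −1.31). Mmp9 too was concentrated, with 48.3% and 44.9% of its UMIs in 3 cells per library, and read 58.4 and 23.2 CPM without them. Mmp9 was highest in the Ly6c2-negative C1q-low state, at 487 and 211 CPM. Of its 1214 and 484 UMIs there, 221 and 74 remained without the 3 top cells. In classical monocytes it read 126 and 3.01 CPM, from 841 and 19 UMIs, of which 28 and 12 remained without the 3 top cells there. Ly6c2-low C1q macrophages ran the other way, with 31.0 and 42.0 CPM. Among the immediate-early and heat-shock genes, 10 of 10 reached 50 UMIs, and Egr1 was the 1 past the limit, higher in the library labelled cko (log2 ratio 0.67, 0.46 to 0.88).

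Of the list genes with at least 1 and under 50 UMIs, 3 of 34 had intervals of the ratio that left out 0, as did 3.28% of all 5338 genes in that range. These 3 genes were chosen after their values were seen. Dcn, which encodes the proteoglycan decorin, gave 38 UMIs labelled wt and 4 labelled cko (log2 ratio −3.34, −5.29 to −1.87), Serpind1, which encodes heparin cofactor II, 25 and 11 (−1.28, −2.45 to −0.20), and Hspg2, which encodes perlecan, 5 and 16 (1.58, 0.07 to 3.39). The fibroblast markers, Dcn among them, summed to 45 and 14 UMIs in the same cells, with 4 of 5 read in each library, Col1a2 at 0 in the first and Lum in the second, and their part in these ratios was not tested.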

How the data were processed

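Single cells of 2 libraries were analysed, 1 per genotype label. Values deposited by the authors are unnormalized UMI counts per gene and barcode, for barcodes already called as cells. Per the labels the chemistry was version 2 of the 10x Genomics 3′ kit, and the submitters' processing notes name Cell Ranger, Seurat and mm10 without versions. Neither says which annotation was counted, and gene positions come from GENCODE on GRCm38, the same assembly as mm10.

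A minimum of 200 genes and a maximum of 10% mitochondrial UMIs per cell removed 4 and 14 cells. Scrublet, run in scanpy 1.11.5, marked 2 and 5 cells by its own threshold, so the top-scoring cells were removed at 0.8% per 1000 barcodes (48 and 58 cells, 1.96% and 2.16%). States were assigned from UMIs of marker genes, with no member in any gate. T and NK cells needed 5 UMIs of their markers. Monocytes and macrophages needed 3 UMIs of their markers, among them Csf1r, Adgre1, Fcgr1 and Cd68. Neutrophils needed 50 UMIs of S100a8 and S100a9 with 5 of other neutrophil genes. Limits of 10 UMIs per 10000 divided C1q-low from C1q-positive cells and low from high interferon response. Cells with markers of 2 lineages (53 and 73) and unassigned cells (20 and 10) stayed out of every state.

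UMIs were summed per state and library and given as CPM with exact Poisson intervals. Ratios have exact conditional binomial intervals and shares exact Clopper-Pearson intervals, all at 95% and for counting error only. A limit for a count of 0 is 3 counts. A gene entered a ratio across all genes with at least 50 UMIs. Ratios were run on simulated Poisson counts with known folds, which do not cover UMIs gathered in few cells. Shares were also computed after thinning each cell to 3000 UMIs. The tools were Python 3.11.15, numpy 2.4.6, scipy 1.17.1, pandas 2.3.3 and matplotlib 3.10.9.

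The members, the pathway lists and the comparisons were chosen with earlier results of these data known. Named genes followed fixed rules: all 10 members, list genes past 1.5-fold between libraries or among the 3 highest of their list, for each member the 3 genes with the highest r among genes with at least 200 UMIs, and for cells with Serpinb2 or Inhba the 5 genes with the highest fold, lower of both libraries, among genes with at least 100 UMIs, of which 1 gene is not reported here. Plau, Dcn, Serpind1 and Hspg2 were named outside these rules. Of the alternatives, 3 were chosen after seeing the data: leaving out the 2 top cells of a gene, leaving out the Ly6c2-negative C1q-low state, and using every deposited cell with no gate.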

Additional observations from a re-analysis of the deposited data

Results flagged for a closer look

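For 3 of the 10 genes, 2 states moved past 1.5-fold in opposite directions between the libraries with intervals on opposite sides of 0, against 1.66% of all genes with at least 50 UMIs. Without the top cell of each library in a state 1 gene, Spp1, did so. The 1.66% was not matched for the number of UMIs. With all cells and no limit on the fold, Vcan joined the 3 genes, at 0.36 in classical monocytes with high interferon response and −2.29 in the CD300E type (24 and 10 UMIs), or −2.06 (−3.76 to −0.53) without the 2 top cells. The difference between the states was not tested, and each state is 1 pool of cells per library. Fn1 had a log2 ratio, cko over wt, of 1.00 in transitional cells (49 and 81 UMIs) and −1.48 in the CD300E type, which rests on 11 and 8 UMIs. Without the top cell of each library those ratios were 1.05 and −0.70, the second with an interval from −2.92 to 1.63. Thbs1 had a ratio of 0.63 in transitional cells (310 and 396 UMIs) and −0.70 in the CD300E type (52 and 65 UMIs), which stood at −0.13 (−0.80 to 0.56) without the top cell. Smaller opposite ratios of Thbs1 held without the 2 top cells, 0.36 (0.25 to 0.46) in classical monocytes with low interferon response against −0.32 (−0.50 to −0.15) in the Ly6c2-negative C1q-low state. Spp1 had a ratio of 2.04 in nonclassical monocytes, from 13 and 50 UMIs of which 30 lay in 1 cell labelled cko, and −1.27 in classical monocytes with high interferon response, which stood at −0.34 (−0.69 to 0.01) without the 2 top cells. Without them Spp1 still had 1.92 (1.11 to 2.84) in the CD300E type, 0.55 in other C1q macrophages and −0.69 (−0.79 to −0.58) in the Ly6c2-negative C1q-low state.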

How the results depend on the processing

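Of the log2 ratios between the libraries, 78 recomputed values stayed within their spread and 11 moved, none with a change of sign in a ratio past 1.5-fold. Serpinb2 went from −1.83 to −0.97 without its 2 top cells and to −0.56 without the Ly6c2-negative C1q-low state. Inhba went from −2.19 to −0.99 without its top cell, −0.51 without its 2 top cells and −0.91 without that state. Under each of these last 2 settings 1 member passed 1.5-fold in place of 2. The Spp1 ratio of 0.03 lay between −0.18 and 0.41 over the alternatives. Of the ratios of classical monocytes over C1q macrophages, 123 stayed and 33 moved. The members 2-fold higher in both libraries numbered 4 under every alternative, including a mean over cells, which lowered Fn1 from log2 3.90 and 4.26 to 3.06 and 3.74. Median-of-ratios size factors moved the median of all genes by 0.11 in the library labelled cko. Subtracting the level of T and NK cells left no value for Spp1, nor for Inhba labelled wt in that comparison, where leaving out the top cell left none either. Shares of cells with a UMI moved with the thinning depth (37 of 40). No paired analysis was possible because each group is 1 library. Depth limits Serpinb2 and Inhba, with 143 and 137 UMIs in monocytes and macrophages of both libraries.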
